A study of Mus musculus with 4 samples.

Results

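The 33 mitosis and spindle genes described here encode the mitotic cyclins and their kinase, the kinases, kinesins and kinetochore proteins of the spindle, and the proteins that cut the cell apart at the end of division. They were chosen by gene symbol, and all 33 were found among the 17921 genes of the deposited table. Expression was measured by RNA sequencing in mouse Th17 cells, the interleukin 17-producing helper T cells, with 1 library from each of 4 mice. The groups were 2 mice labelled PRAK KO, a knockout of the p38-regulated kinase encoded by Mapkapk5, and 2 wild-type (WT) mice. Naive CD4+ T cells enriched from each mouse were driven towards Th17 cells in vitro for 72 h, and the whole culture was taken, so activated and dividing cells of any type in it were sequenced together. The labels give no strain, age or sex, and do not say how the gene was disrupted. Libraries carry the number of their mouse (WT 1, WT 2, KO 1, KO 2). The p-values rest on the spread between these libraries, shared in part across genes. In that spread, mouse, culture and library cannot be told apart.

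Mitosis is driven by CDK1 bound to cyclins A and B. At entry, chromosomes condense, a spindle forms from microtubules and motor proteins, and kinetochores tie each chromosome to it. Until every kinetochore is attached, the spindle checkpoint restrains CDC20 and the anaphase-promoting complex, after which separase cuts cohesin and the cell divides. Most of these genes are transcribed late in the cell cycle, through promoters that carry a cell cycle homology region (CHR) bound by the DREAM and MuvB complexes and CCAAT boxes bound by NF-Y. Stimulated T cells divide rapidly on day 3 of culture, and in a bulk sample fewer dividing cells and less mRNA per dividing cell cannot be told apart.

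The promoters show which of these elements the genes share. RefSeq promoter windows (GRCm38.p6, 250 bases before to 50 after the annotated start) were at hand for 28 of the 33 genes, and Aurkb, Ccna2, Incenp, Kif20a and Tpx2 had none. On either strand, the CHR letters TTTGAA occurred in 21 of the 28 (75.0%), against 14.5% of the 10163 tested genes with a window. With TTTAAA counted too, the numbers were 24 of 28 (85.7%) and 22.5%. Within 50 bases of the start, TTTGAA stood in 19 of 28 genes (67.9%), against 3.82% of all, in 30 of 68 other mitosis genes (44.1%) and in 2 of 31 DNA replication genes. In the whole window the share of other mitosis genes was 55.9%. At least 1 CCAAT was found in 21 of 28 (75.0%, against 43.2%), and at least 2 in 14 of 28 (against 16.8%). CCAAT was about as common in other mitosis genes (67.6%, with at least 2 in 42.6%) and in replication genes (71.0% and 41.9%). The E2F letters TTTGGCGC or TTTCCCGC were found in 0 of the 28 genes, but in 11 of the 31 replication genes with a window and 3.38% of all. These matches are letters in a window, not measured binding.

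The 4 sites below belong to genes that were lower in KO cells, and are shown in the direction of transcription because each has a TTTGAA (capitals, either strand) just past the start, its first base at position 5, 3, 31 and 29 counted from 1 at the start. They are at chr9:70421533-70421562 (Ccnb2, minus strand), chr1:189688067-189688096 (Cenpf, minus strand), chr6:124830194-124830223 (Cdca3, plus strand) and chr9:22389168-22389197 (Anln, minus strand), in GRCm38.p6, and each overlaps an annotated exon of its own gene.
Ccnb2: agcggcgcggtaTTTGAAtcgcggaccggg
Cenpf: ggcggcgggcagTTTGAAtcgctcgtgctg
Cdca3: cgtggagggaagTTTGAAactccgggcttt
Anln: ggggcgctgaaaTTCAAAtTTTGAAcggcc
In Anln the letters occur on both strands, TTCAAA at position 22 and TTTGAA at position 29. Ccnb2 has another TTTGAA, at position -167. Genes that did not pass also have TTTGAA just past the start, among them Kif23 at position 3, Cdca8 at 14 and Kif4 at 20.

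The next pair shows the 120 bases before the start of Ccnb2 (chr9:70421555-70421674, minus strand), which was lower in KO cells, and of Mad2l1 (chr6:66535101-66535220, plus strand), whose level moved least. Capitals mark CCAAT.
Ccnb2: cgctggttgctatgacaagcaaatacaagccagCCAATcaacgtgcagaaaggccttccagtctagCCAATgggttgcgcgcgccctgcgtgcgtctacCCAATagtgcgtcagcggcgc
Mad2l1: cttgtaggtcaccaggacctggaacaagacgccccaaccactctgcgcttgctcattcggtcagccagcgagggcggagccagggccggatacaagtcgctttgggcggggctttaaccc
Ccnb2 carries 3 CCAAT boxes, and Mad2l1, Nuf2 and Nusap1 carry neither CCAAT nor a CHR match in the whole window. The pair does not stand for the list. Of the other genes that fell, Cdca3 has 3 CCAAT boxes, Cenpf 2 and Anln 0. Genes that did not pass ranged from 0 in Mad2l1 to 6 in Top2a, with 3 in Cdk1. A link between these elements and the changes was not tested. Bub1, which had the lowest log2 fold change of the 33 genes, has 2 CCAAT boxes and 0 CHR matches.

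Library totals were 19418012 to 20125124 expected counts, and each of the 33 genes had at least 486 counts in every library. CPM are counts scaled to the library total with TMM factors, or to the total alone for the marker sums. Mapkapk5 was lower in both KO libraries, with 35.6 and 38.4 CPM in WT against 20.04 and 21.6 in KO. The log2 fold change of Mapkapk5 was -0.83 (SE 0.13, adjusted p = 0.0194, edgeR). Here and below, adjusted p comes from edgeR's quasi-likelihood test, adjusted by Benjamini-Hochberg over all genes. Its mRNA was thus still counted in the KO libraries. Which part of Mapkapk5 was removed is not stated in the labels, so these counts do not check the loss of the protein. Across genes, log2 CPM correlated with Pearson r = 0.974 between the KO libraries and 0.992 between the WT libraries. The 6 T cell markers summed to 1967 to 2745 CPM over the 4 libraries. The 6 Th17 markers summed to 2776 CPM or more in WT 1, WT 2 and KO 1 but to 1318 in KO 2. The sums over 13 myeloid markers were 66.4 and 95.3 CPM in WT against 164 and 333 in KO, and over 8 markers of CD8 T and NK cells 52.6 and 128 against 367 and 305. B cell markers (6 genes) summed to 33.3 and 88.4 CPM in WT and 133 and 117 in KO, and 7 erythroid markers to at most 7.30 CPM, with no marker of these lists at 0 in all libraries. The part of these other cells in the results below was not tested.

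In KO cells the mitosis and spindle genes lay slightly lower as a list, and 5 of them fell: Bub1, Anln, Ccnb2, Cenpf and Cdca3. The comparison asks which of these genes differ between PRAK KO and WT Th17 cells. The fitted log2 fold change was below 0 for all 33, from -0.77 to -0.02, with a median of -0.29, against a median of 0.02 and 48.2% below 0 over the 12680 genes tested. No gene of the list rose, and 28 did not pass. Calls numbered 5 of 33 (15.2%, all lower), where 13.4% of all genes tested were called, 8.23% lower and 5.14% higher. The share called lies near the background. Both KO libraries lay below both WT libraries for 20 of the 33 genes (60.6%), where 31.4% of all genes did so, and above both for 0 genes. Scaling bears on the sign of the smallest differences. With library size alone, which moves the median of all genes to 0.12, 30 of 33 were below 0 (all but Kif20a, Mad2l1 and Nuf2), and 33 of 33 were below that median. That scaling also turned the split of calls over all genes from 652 higher and 1043 lower to 918 and 864.

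In these 33 genes KO 2 lay further from the WT libraries than KO 1 did. KO 2 was below both WT libraries in 32 of the 33 genes and KO 1 in 20, and KO 2 was below KO 1 in 31. At the median gene KO 1 stood at 91.8% of the WT mean and KO 2 at 71.7%. For 17 of the 33 genes the gap between the KO libraries exceeded the gap between the genotype means. None of these counts was made over all genes, so they describe the list alone. The median log2 ratio of KO 2 to KO 1 was -0.30 in the 33 genes, against 0.002 over all genes tested. Without KO 1, 31 of 33 genes were called lower (18.7% of all genes were), with Mad2l1 and Nuf2 the exceptions. Without KO 2, 9 were (24.0% of all genes were), and the median log2 fold change was -0.13. In these fits the single KO library is assumed to vary as the WT libraries do. KO 2 is also the library with the lowest summed Th17 markers and the highest summed myeloid markers, and their part in this was not tested.

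**Figure D1:**
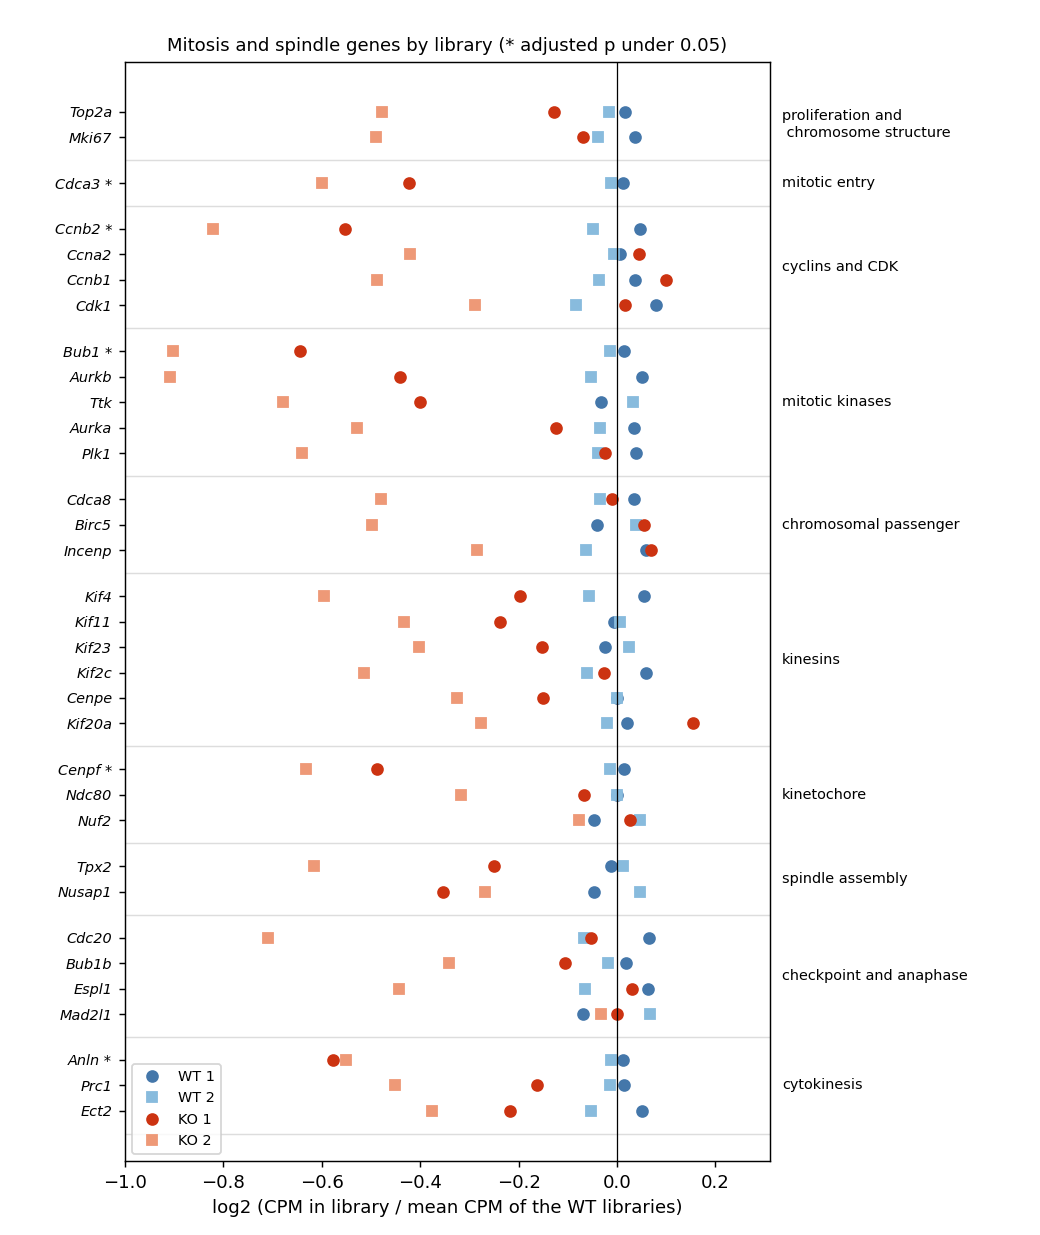
Level of each of the 33 genes in each library as log2 of its CPM (TMM scaling) over the mean of the WT libraries, grouped by role; points are single libraries and an asterisk marks an adjusted p under 0.05. KO 2 lies left of both WT libraries in 32 genes and KO 1 in 20, and Mad2l1 and Nuf2 stay near 0.

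The genes that fell were of different roles, a kinase, a cyclin, a kinetochore protein, a cytokinesis scaffold and a mitotic entry gene. Bub1, a checkpoint kinase that acts at kinetochores and phosphorylates histone H2A there (chromosome 2, 127800197 to 127831859), read 96.7 and 94.7 CPM in the WT mice against 61.2 and 51.2 in KO 1 and KO 2. It fell by 0.77 on the log2 scale (SE 0.13, adjusted p = 0.0235), from 95.7 ± 1.40 to 56.2 ± 7.06 CPM (SD, n = 2 each, edgeR across all genes). Both KO libraries were below the WT pair, KO 2 the lower. Anln encodes anillin, the scaffold of the contractile ring (chromosome 9, 22331214 to 22389211). It had 51.4 and 50.5 CPM in WT against 34.2 and 34.8 in KO, so it changed by -0.56 on the log2 scale (SE 0.11, adjusted p = 0.0325). Its KO libraries were nearly equal.

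Ccnb2, the gene of cyclin B2, which partners CDK1 (chromosome 9, 70407689 to 70421554), had 114 and 107 CPM in WT against 75.2 and 62.4 in KO. Its log2 change was -0.68 (SE 0.14, adjusted p = 0.0333). Cenpf, a large protein of the outer kinetochore (chromosome 1, 189640606 to 189688107), had 111 and 109 CPM in WT against 78.4 and 70.9 in KO. It changed by -0.56 (SE 0.11, adjusted p = 0.0350). Cdca3, a gene of mitotic entry that is also called Tome-1 (chromosome 6, 124829530 to 124833701), had 175 and 172 CPM in WT against 130 and 115 in KO. It changed by -0.51 (SE 0.12, adjusted p = 0.0477), and was the gene nearest the threshold among those that passed. In each of these 3 genes too the genotypes did not overlap. None of the 5 shares exon bases with another annotated gene, but the expected counts of Anln and Cenpf were not whole numbers.

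All 5 calls were lost without either WT library, while the fold changes stayed about as large. With 1 WT library left, the spread within groups comes from the KO pair alone. Without WT 1 the adjusted p values were between 0.117 for Bub1 and 0.365 for Cdca3, and without WT 2 between 0.103 and 0.365, so 0 of 33 genes passed (edgeR, with 4 and 5 at an unadjusted p under 0.05), where 3.87% and 3.43% of all genes were called lower. The log2 change without WT 1 and without WT 2 was -0.76 and -0.79 for Bub1, -0.64 and -0.73 for Ccnb2, -0.55 and -0.58 for Anln, -0.55 and -0.58 for Cenpf, and -0.50 and -0.53 for Cdca3. With the deposited TPM and limma, 0 of the 33 passed (6 at an unadjusted p under 0.05), where 6.1% of all genes were called lower and the adjusted p of Bub1 was 0.0642. Of all genes, 6.81% were called lower with library size alone (3 of the 33 genes), 10.3% with DESeq2 (6) and 12.6% with the mouse number as a block (7). The count was 5 with RLE size factors (8.2% of all genes), limma-voom (8.47%), no filter (6.51%) and no robust estimation (8.3%).

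**Figure D2:**
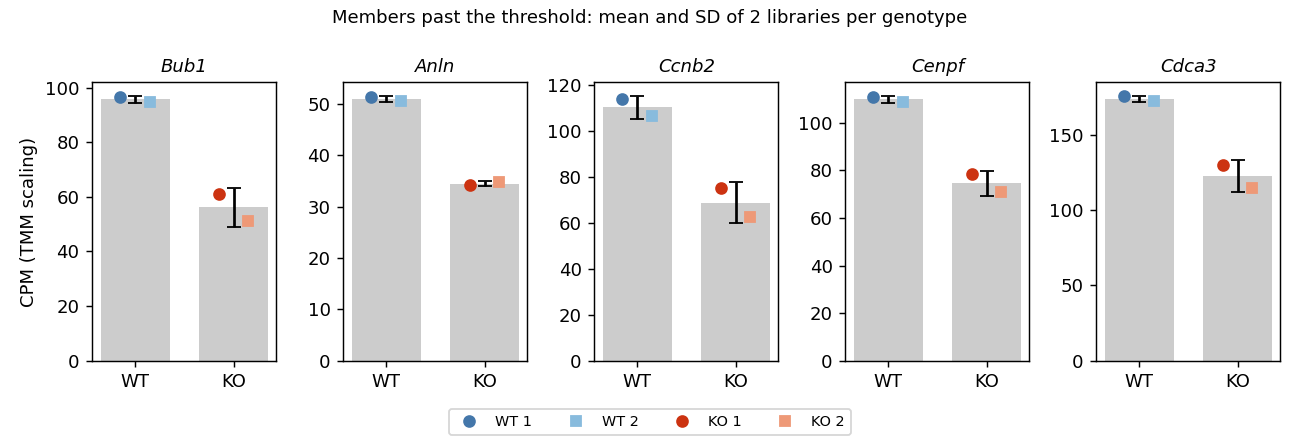
CPM (TMM scaling) of the 5 genes past the threshold; bars are means over 2 libraries per genotype, error bars are SD and points are libraries. Every KO point lies below both WT points, and the KO points of Anln (34.2 and 34.8) almost coincide.

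Of the 4 genes for cyclins and CDK1, Ccnb2 passed and 3 did not. Ccnb1, the gene of cyclin B1, had 124 and 118 CPM in WT, 130 in KO 1 and 86.4 in KO 2 (log2 change -0.16, adjusted p = 0.626). KO 1 was above both WT libraries and KO 2 below them. Ccna2, the gene of cyclin A2, had 274 and 272 CPM in WT, 282 in KO 1 and 204 in KO 2 (-0.17, adjusted p = 0.562), which is the same order. Cdk1 had 97.9 and 87.4 CPM in WT against 93.7 and 75.8 in KO, with overlapping groups (-0.13, adjusted p = 0.595).

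Among mitotic kinases, Aurkb and Ttk came close to the threshold. Aurkb, the kinase of the chromosomal passenger complex, had 179 and 167 CPM in WT, 127 in KO 1 and 92.2 in KO 2 (log2 change -0.65, SE 0.18, adjusted p = 0.0690). Its groups did not overlap, and it passed with DESeq2. Ttk, the MPS1 kinase that starts the spindle checkpoint, had 37.8 and 39.5 CPM in WT against 29.3 and 24.2 in KO (-0.53, SE 0.15, adjusted p = 0.0706). Aurka, the centrosomal kinase, had a log2 change of -0.31 (adjusted p = 0.253) and Plk1, which acts from mitotic entry to cytokinesis, of -0.30 (0.387). Plk1 had 144 CPM in KO 1, between the WT values of 151 and 143, and 94.1 in KO 2.

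The 3 partners of Aurkb in the chromosomal passenger complex did not pass. Birc5, the gene of survivin, had 127 and 134 CPM in WT, 135 in KO 1 and 92.2 in KO 2 (log2 change -0.20, adjusted p = 0.540). Incenp, which activates Aurora B, had a log2 change of -0.10 (0.706) and Cdca8, the gene of borealin, of -0.23 (0.429). In all 3 the genotypes overlapped.

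None of the 6 kinesin genes passed. Kif11, the motor that pushes spindle poles apart, had 219 and 220 CPM in WT against 186 and 163 in KO (log2 change -0.33, adjusted p = 0.135). Kif4, the chromokinesin of the midzone, had a log2 change of -0.38 (0.178), Kif23, the motor of centralspindlin, of -0.27 (0.223), and Cenpe, the kinetochore motor, of -0.24 (0.234). These 4 had both KO libraries below the WT pair. Kif2c, a microtubule depolymerase, had a log2 change of -0.25 (0.405) and Kif20a, a cytokinesis motor, of -0.04 (0.881), both with overlap. Kif20a was highest in KO 1 (135 CPM, against 123 and 120 in WT and 101 in KO 2), and shares 29.3% of its exon bases with Cdc23 on the opposite strand, whose reads could not be told apart if strand was not kept.

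Mad2l1 and Nuf2 had the log2 changes nearest 0 of the 33 genes. Nuf2 and Ndc80 encode partners in the complex that binds microtubules. Nuf2 had 65.2 and 69.6 CPM in WT against 68.6 and 63.9 in KO (log2 change -0.02, SE 0.12, adjusted p = 0.908), and Ndc80 had a log2 change of -0.19 (0.391). Mad2l1, the gene of the checkpoint protein MAD2, had 101 and 111 CPM in WT against 106 and 103 in KO (-0.02, SE 0.11, adjusted p = 0.938). Its KO values lay inside the WT pair. Bub1b, the gene of the checkpoint protein BUBR1, had a log2 change of -0.22 (0.295), and Espl1, the gene of separase, of -0.19 (0.520). Cdc20, the activator of the anaphase-promoting complex, had 138 and 126 CPM in WT, 127 in KO 1 and 80.5 in KO 2 (-0.34, SE 0.23, adjusted p = 0.350), with the widest error of the 33 genes.

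Spindle assembly and cytokinesis genes lay lower without passing, Anln aside. Tpx2, which brings Aurora A to the spindle, had 267 and 272 CPM in WT against 227 and 176 in KO (log2 change -0.42, adjusted p = 0.135). Nusap1, a microtubule-bundling protein, had 184 and 196 CPM in WT against 149 and 158 in KO (-0.31, adjusted p = 0.130). It was 1 of the 2 genes with KO 2 above KO 1, the other being Anln. Prc1, which bundles midzone microtubules, had a log2 change of -0.30 (0.199) and Ect2, the exchange factor that activates RhoA at the division plane, of -0.29 (0.168), both without overlap.

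The most abundant member per length was Top2a, the topoisomerase that untangles sister chromatids. It stood at 300.4 and 285 TPM in WT, 296 in KO 1 and 218 in KO 2. Birc5 followed with a mean of 197 TPM over the libraries, Cdca3 with 185 and Ccna2 with 172, and the lowest were Anln and Cenpf with 16.2 each. The median of the 33 genes was 76.1 TPM. In CPM, Top2a had a log2 change of -0.29 (adjusted p = 0.301) and Mki67, the gene of the proliferation marker Ki-67, of -0.26 (0.383). Mki67 had 896 and 850 CPM in WT, 832 in KO 1 and 622 in KO 2, so KO 1 stood at 95.4% of the WT mean and KO 2 at 71.2%. Summed TPM of the 33 genes was 3261 and 3093 in WT, 3223 in KO 1 and 2345 in KO 2, so on that scale KO 1 lay within the WT pair.

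Genes that act earlier in the cycle lay on the other side. Of 40 DNA replication and S phase genes, 1 rose, 0 fell and 39 did not pass, where 5.14% of all genes were called higher. Their median log2 change was 0.30, 37 were above 0, and both KO libraries lay above both WT libraries for 25, where 31.7% of all genes did so. The median was 0.11 without KO 1, with 30 of 40 above 0, and 0.50 without KO 2. The one that rose was Tyms, the thymidylate synthase gene, from 49.5 ± 3.35 to 99.5 ± 7.91 CPM (SD, n = 2 each, 1.01, adjusted p = 0.0102, and 0.0571 without WT 2). A comparison within each library does not depend on its scaling. The mean log2 CPM of the 33 mitosis genes exceeded that of the 40 replication genes by 0.64 in WT 1 and 0.73 in WT 2, but by 0.07 in KO 1 and 0.08 in KO 2. The excess was 0.68 ± 0.06 in WT and 0.07 ± 0.01 in KO (SD, n = 2 each), a difference of -0.61. Here the KO libraries were nearly equal, and the median log2 ratio of KO 2 to KO 1 was -0.31 in the replication genes and -0.30 in the mitosis genes. The lists were chosen with earlier results known, so this is given as a description, with no test.

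**Figure D3:**
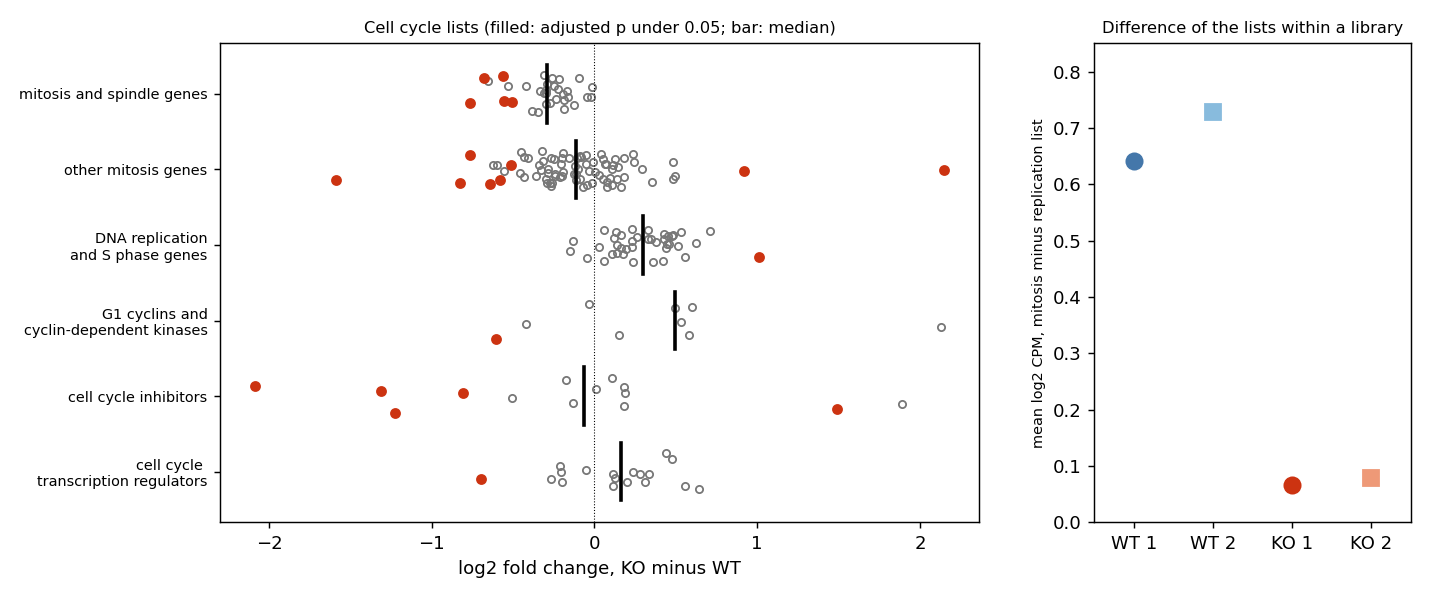
Left, log2 change (KO minus WT) of each gene of 6 cell cycle lists, with filled points past the threshold and bars at the median (-0.29 for the mitosis and spindle genes, 0.30 for the replication genes). Right, the mean log2 CPM of the mitosis and spindle genes minus that of the replication genes in each library, 0.64 and 0.73 in WT against 0.07 and 0.08 in KO.

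Other mitosis genes, 81 outside the list, gave a called share under that of all genes: 6 fell (7.41%, against 8.23% of all genes), 2 rose (2.47%, against 5.14%) and 73 did not pass, with a median of -0.11. Below 0 were 53 of the 81 (65.4%, against 48.2% of all genes), and 43 with library size alone. Both KO libraries lay below both WT libraries for 38 and above both for 13, where 31.4% and 31.7% of all genes did so. The direction of the calls depended on scaling. By library size alone 2 of the 81 were called lower and 4 higher, where 864 and 918 of all 12680 genes were. With the deposited TPM 2 were called each way, where 774 of all genes were called lower and 623 higher. The median of the 81 was -0.24 without KO 1 and -0.02 without KO 2. Pttg1, the gene of securin, the inhibitor of separase, fell from 63.7 ± 4.42 to 21.2 ± 3.59 CPM (SD, n = 2 each). Its libraries read 60.6 and 66.8 in WT against 18.6 and 23.7 in KO (log2 change -1.59, SE 0.16, adjusted p = 0.0063), and it alone of the 8 was also called without either WT library. Cdc25b and Cdc25c, phosphatases that activate CDK1, changed by -0.83 (adjusted p = 0.0162) and -0.77 (0.0384). Cenpa, the centromeric histone, changed by -0.64 (0.0420), the cohesin gene Rad21 by -0.58 (0.0421), and Cdca2, which recruits a phosphatase to chromatin, by -0.51 (0.0366). Gtse1 and Psrc1, both also known as p53 target genes, rose, Gtse1 from 88.2 ± 3.81 to 167 ± 26.0 CPM (0.92, adjusted p = 0.0189). Psrc1 stood at 33.2 and 43.3 CPM in WT, 89.7 in KO 1 and 250 in KO 2 (2.15, adjusted p = 0.0445), and its change was 1.22 without KO 2 and 2.71 without KO 1.

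Ratios between partners within a library also do not depend on scaling. With 2 libraries against 2, an exact two-sided permutation test cannot give a p below 0.333, so the ratios are given as values, and the pairs were picked after the gene values had been seen. The TPM ratio of Ccnb2 to Ccnb1 was 1.39 and 1.37 in WT against 0.876 and 1.09 in KO. Bub1 to Bub1b, paralogous checkpoint genes, read 0.594 and 0.597 in WT against 0.410 and 0.404 in KO. Both ratios were lower in each KO library than in either WT library. Aurkb to Cdca8 read 1.39 and 1.36 in WT against 1.02 in each KO library, and Aurkb to Incenp read 1.42 in each WT library against 0.989 and 0.920. For the separase pair, Pttg1 to Espl1 read 4.20 and 5.04 in WT against 1.29 and 2.34 in KO. By contrast, Cdk1 to Ccna2 overlapped (0.351 and 0.316 in WT, 0.327 and 0.365 in KO), as did Cdk1 to Ccnb1 and the centralspindlin pair Kif23 to Racgap1.

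**Figure D4:**
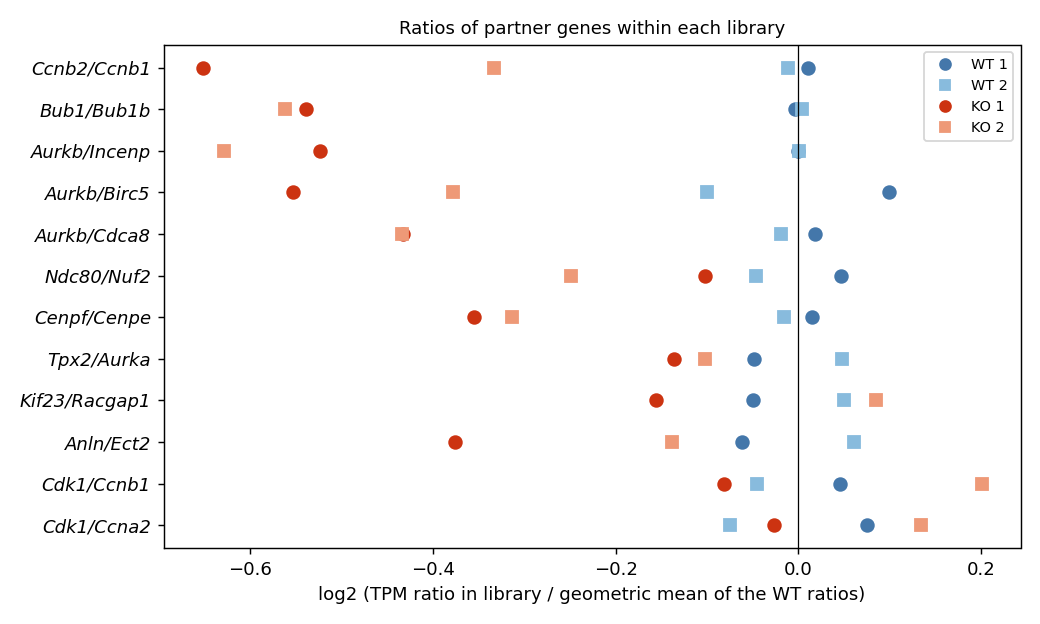
Ratio of the deposited TPM of partner genes in each library, as log2 over the geometric mean of the WT ratios; points are libraries, and Pttg1/Espl1 is not drawn. Ratios to Cdca8 and Incenp place Aurkb lower in both KO libraries, and Bub1/Bub1b separates the genotypes, whereas both Cdk1 ratios overlap.

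Among regulators upstream of mitosis, calls were made in each of 3 lists. Of 9 G1 cyclins and their kinases 1 fell (11.1%, against 8.23% of all genes) and 0 rose, with a median of 0.49 that was 0.08 without KO 1. With library size alone 1 was called higher and 0 lower, where 918 and 864 of all 12680 genes were. With the mouse number as a block 4 were called higher and 1 lower, where 1338 and 1597 of all genes were. The one that fell was Ccnd3, the gene of cyclin D3, with 790 and 811 CPM in WT against 507 and 545 in KO (log2 change -0.61, adjusted p = 0.0439, 0.0633 with library size alone and 0.367 without WT 1). Of 14 tested cell cycle inhibitors 4 fell (28.6%, against 8.23% of all genes) and 1 rose (7.14%, against 5.14%). Their median was -0.06, but 0.04 with library size alone, -0.11 without KO 1, -0.13 without WT 2 and -0.25 without KO 2. Cdkn1b, the gene of the CDK inhibitor p27, fell from 162 ± 7.08 to 69.3 ± 7.44 CPM (-1.22, adjusted p = 0.00681). Ccng2 changed by -2.09 (0.00693), Rbl2, the gene of the pocket protein p130 of the DREAM complex, by -1.31 (0.0278), and Cdkn2d by -0.81 (0.0210). Ccng1, a p53 target, rose by 1.49 (0.0153). These calls were kept without either WT library, except that of Cdkn2d (adjusted p = 0.0715 without WT 1 and 0.105 without WT 2).

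Of 18 transcription regulators of the cell cycle 1 fell (5.56%, against 8.23% of all genes) and 0 rose. Their median was 0.16, with 0.06 without KO 1 and 0.25 without KO 2. This gene was Nfyb, a subunit of NF-Y, with 85.1 and 84.0 CPM in WT against 51.3 and 53.1 in KO (-0.70, SE 0.11, adjusted p = 0.0183, 0.156 without WT 1 and 0.148 without WT 2). The other NF-Y subunits did not pass, with Nfya at 0.11 and Nfyc at 0.28. Foxm1, the factor that binds MuvB on late cell cycle promoters, had 159 and 161 CPM in WT against 153 and 126 in KO (-0.20, adjusted p = 0.361). Mybl2, the gene of B-MYB, had 94.2 and 86.6 CPM in WT, 142 in KO 1 and 71.2 in KO 2 (0.24, adjusted p = 0.649), and Lin54, the MuvB subunit that reads the CHR, had a log2 change of -0.27 (0.218).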

How the data were processed

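Per the submitters' processing notes, the build was GRCm38.p6 and the tools, in no stated role, were RSEM 1.2.12, Bowtie2 2.2.5 and HISAT2 2.0.4. Annotation, kit and strand: not given in the sources used here. The authors deposited per gene an expected count (69.4% whole numbers), an FPKM scaled to length and depth (not used here) and a TPM scaled to 1 sum per library, per the file headers and values.

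Expected counts were rounded, filtered with filterByExpr (minimum count 10, total 15; 12680 genes kept, all 33 members among them), scaled by TMM and tested for genotype, the single term, with robust quasi-likelihood in edgeR 4.0.16 under R 4.3.3. Adjusted p-values are Benjamini-Hochberg over all genes, with a threshold of 0.05. Levels are CPM with TMM factors, marker sums are CPM by library size, and SE comes from the fold change and F. TPM served to compare genes, and, in limma 3.58.1 on log2(TPM + 1), as an alternative chosen after seeing the data. DESeq2 1.42.0, voom and other settings were alternatives. The fold change estimates were checked on simulated counts with known changes. The spread there was alike in both genotypes, so unequal spread was not tested.

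Members, lists and motifs were chosen with earlier results of these data known. The rule for named genes was every member past the threshold and the 4 with the highest TPM in full, and of each other list up to 6 genes past the threshold by smallest p. Rad21, Psrc1, Nfya, Nfyc, Foxm1, Mybl2, Lin54 and the library values of other members fall outside it and were chosen after their values were seen. With 2 mice per genotype there were 2 residual degrees of freedom.

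Counts were not whole for 12 members, and 9 members overlap exons of another gene (over 10% of bases in Ccna2, Kif20a, Kif4 and Prc1; GENCODE M21).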

Additional observations from a re-analysis of the deposited data

How the results depend on the processing

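Of the 33 genes, 5 were also called with RLE size factors, limma-voom, no filter and no robust estimation, 6 with DESeq2, 3 with library size alone (Anln, Bub1, Ccnb2) and 0 with the deposited TPM in limma (6 at an unadjusted p under 0.05). With library size alone 1782 of all genes were called. The count there was also 3 for replication genes, all higher, and 2 for transcription regulators, 1 each way. The log2 fold change turned above 0 for Kif20a (0.053), Mad2l1 (0.082) and Nuf2 (0.074). It did so with the deposited TPM for Kif20a (0.038), Mad2l1 (0.075) and Nuf2 (0.082). In that setting 4 other mitosis genes were called, and 1397 genes in all. DESeq2 called 3 replication genes, 2 G1 genes and 2 transcription regulators. The replicate block called 2935 genes in all, 7 of the 33, 16 other mitosis genes, 14 replication genes, 5 G1 genes and 2 transcription regulators. The labels share only mouse numbers, and same-numbered libraries deviated with a correlation of 0.17, so no pairing is claimed.

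Leaving out 1 library gave 693 to 5999 calls over all genes, 0 to 31 of the 33, 1 to 37 other mitosis genes, 0 to 29 replication genes, 0 to 7 G1 genes, 4 to 9 inhibitors and 0 to 11 transcription regulators. The median of the 33 genes ranged from -0.48 to -0.13. Signs turned in at least 1 of these fits for Birc5 (-0.50 to 0.049), Ccna2 (-0.42 to 0.039), Ccnb1 (-0.49 to 0.095), Cdk1 (-0.29 to 0.011), Espl1 (-0.44 to 0.024), Incenp (-0.29 to 0.063), Kif20a (-0.28 to 0.15), Mad2l1 (-0.086 to 0.048) and Nuf2 (-0.078 to 0.021). The cause was not tested. With 2 libraries per genotype, the spread between libraries rests on few values and limits the precision.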
